A study of Rattus norvegicus with 12 samples.

Results

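Polyamines are small, positively charged molecules that dividing cells make from ornithine and S-adenosylmethionine, and 8 genes that make them, restrain their making or break them down were followed here in fetal rat liver. The genes were a list fixed by name: Odc1, Amd1, Srm and Sms (synthesis), Oaz1 and Oaz2 (antizymes), Azin1 (antizyme inhibitor) and Sat1 (catabolism). They are 8 of the 14497 genes that had a probe of their own in the platform table. The list matched 12 probes, the brightest probe of each gene was used, and all 8 genes passed the filter on dim probes that left 8649 genes for testing.

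The samples were livers of Sprague Dawley rat fetuses, taken at day 19 of a 21-day gestation. The 12 Affymetrix Rat Gene 1.0 ST arrays formed 4 groups of 3: polysome RNA from fetuses of dams fasted for 48 hr from day 17 (fasted polysome), polysome RNA from fetuses of dams fed freely (fed polysome), and total RNA of each (fasted total, fed total). Fasting of the dam is used in this design to restrict fetal growth. Polysome RNA is the RNA of sucrose gradient fractions in which messages carry several ribosomes. The labels give 3 dams for each diet, call the samples biological replicates and do not say how many fetuses stand behind an array, and polysome preparations were pooled before extraction. All values are log2(intensity + 1), changes carry the standard error (SE) of a limma fit to all 12 arrays, n = 3 arrays per group throughout, and a gene is said to rise or fall only where its Benjamini-Hochberg adjusted p over all tested genes was under 0.05.

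Ornithine decarboxylase (Odc1) makes putrescine, the first committed step. S-adenosylmethionine decarboxylase (Amd1) makes the donor that spermidine synthase (Srm) and spermine synthase (Sms) use to lengthen putrescine to spermidine and spermidine to spermine. Antizymes (Oaz1, Oaz2) bind ornithine decarboxylase, carry it to the proteasome without ubiquitin and reduce polyamine uptake. They are made only when ribosomes shift reading frame on their messages, which polyamines promote. Antizyme inhibitor (Azin1) resembles ornithine decarboxylase but has no enzyme activity, and it frees the enzyme by binding antizyme. Spermidine/spermine acetyltransferase (Sat1) marks polyamines for oxidation or export. Much of this pathway is set by translation and protein turnover, which RNA levels do not show.

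Amd1 carries, near the 5′ end of its message, a short upstream open reading frame that in mammals stalls ribosomes when polyamines are plentiful. It is shown because the polysome arrays sample messages that carry several ribosomes. They do not give the number of ribosomes on a message. The capitals mark its start and stop codons, and it begins at base 12 after the start site of the RefSeq promoter window used for rat Amd1 (GRCr8, chr20:45265951-45265971, minus strand). RefSeq's span of the gene (chr20:45250289-45324939) reaches further upstream, so this start need not be the only one.
Amd1 upstream open reading frame: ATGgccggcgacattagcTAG
A first start codon with an in-frame stop in the first 50 bases was found in 10.5% of the 33469 RefSeq promoter windows, and among the members searched in Amd1 alone.

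Promoter windows of 250 bases before the start were in RefSeq's table (GRCr8) for 7 of the 8 genes, all but Azin1. The first window listed for a gene was used, and for Odc1, Amd1 and Sms its start lies inside RefSeq's span of the gene. Each was searched on both strands for 4 sets of letters: CACGTG, the E-box bound by Myc, TATAA, the core of a TATA element, GTAAACA, a FoxO site, and TGACG, part of a cyclic AMP response element. The E-box was in Srm and Oaz1 (2 of 7, against 5.59% of all windows). TATAA was in Odc1, Amd1 (overlapping on both strands) and Oaz1 (3 of 7, against 24% of all windows), and TGACG was in Odc1, Amd1, Sms, Oaz1 and Sat1 (5 of 7, against 18.2%). GTAAACA was in 0 of 7, against 3.21% of all windows. These are matches of letters and not measured binding, and sites outside the 250 bases, such as in introns, were not searched. The E-box stretches of Srm (chr5:164308817-164308846, plus strand) and Oaz1 (chr7:9537207-9537236, minus strand) are shown because the regulator Myc was measured on the same arrays, with the E-box in capitals.
Srm E-box: gcccctcggcccCACGTGgcccggcagccg
Oaz1 E-box: gagtgacgcaaaCACGTGggggcgggactc
The TATA stretches lie just before the starts of Odc1 (chr6:46058621-46058650, plus strand), Amd1 (chr20:45265994-45266023, minus strand) and Oaz1 (chr7:9537001-9537030, minus strand), with TATAA in capitals.
Odc1 TATA element: acgtgctccgccTATAAgtagcggcgcgtc
Amd1 TATA element: ggaggatgcttaTATAAagtctgcgctcac
Oaz1 TATA element: agtgacgacgcaTATAAaagtgggcgtcgg
The 250 bases before the start of Sat1 (chrX:44007839-44008088, plus strand) are given whole because Sat1 was the member that passed the test for fasting. The capitals mark its single match, TGACG on the opposite strand, 41 to 37 bases before the start.
Sat1 promoter: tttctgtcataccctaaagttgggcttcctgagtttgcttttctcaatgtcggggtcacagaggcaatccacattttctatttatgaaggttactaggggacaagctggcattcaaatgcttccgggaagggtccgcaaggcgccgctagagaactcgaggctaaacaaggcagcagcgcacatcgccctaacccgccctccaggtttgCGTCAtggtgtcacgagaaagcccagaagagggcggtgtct

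Median intensities of the arrays ran from 101.3 to 108.3, and arrays of 1 group correlated at 0.9914 to 0.9961 over all probes. Arrays of the same fraction and the other diet correlated at 0.9917 to 0.9948, within that range, and arrays of different fractions at 0.9816 to 0.988. Fed polysome 1 had the lowest mean correlation with its own group, 0.9922. Markers fixed for hepatocytes were tested in 10 of 10 cases and those for erythroid cells in 9 of the 9 with a probe. In the limma fit 0 of either list changed with fasting, where 1.63% of all tested genes did in total RNA and 3.71% in polysome RNA. At such shares lists this short can hold 0 calls, so the counts do not show that these cells stayed level. Of 10 exocrine pancreas markers, 6 lay under the filter. The summed intensity of the list was 1103 to 1180 in fasted total arrays, against 3743, 1211 and 1742 in fed total arrays 1, 2 and 3. On polysomes the sums overlapped, at 1014 to 1220 in fasted polysome arrays, against 956 to 1347 in fed polysome arrays. Of these markers Cpa1, a carboxypeptidase, fell in total RNA (-1.98 log2, limma adjusted p = 0.0449), a call lost in 9 of the 12 fits without 1 array. In bulk liver, fewer cells of a type and less RNA per cell cannot be told apart, and the source of the pancreas marker messages was not tested. RefSeq lists 10 pseudogenes named for Odc1, 3 for Amd1, and 2 each for Sms and Oaz1. Whether the probes of these genes also read such copies is not known here.

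After maternal fasting, Sat1 was higher in the polysome RNA of the fetal liver, and it was the 1 member of the list that passed the test in either fraction. The messages for polyamine synthesis measured lower on average after fasting, except for Srm on polysomes, and none of these differences passed. In polysome RNA 1 of 8 members was called, higher, where 3.71% of all tested genes were called, 2.65% higher and 1.06% lower. In total RNA 0 of 8 members were called in the limma fit, where 1.63% of all genes were called, 1.14% higher and 0.486% lower. In that fraction 2 of 8, Odc1 and Sat1, had an unadjusted limma p under 0.05, as did 1510 of 8649 tested genes. On polysomes 4 of 8 had one, Odc1, Sms, Azin1 and Sat1, as did 1980 of 8649 tested genes. The median change over the 8 members was -0.12 log2 on polysomes and -0.11 in total RNA, beside 0.023 and 9.58e-04 log2 over all tested genes.

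**Figure D1:**
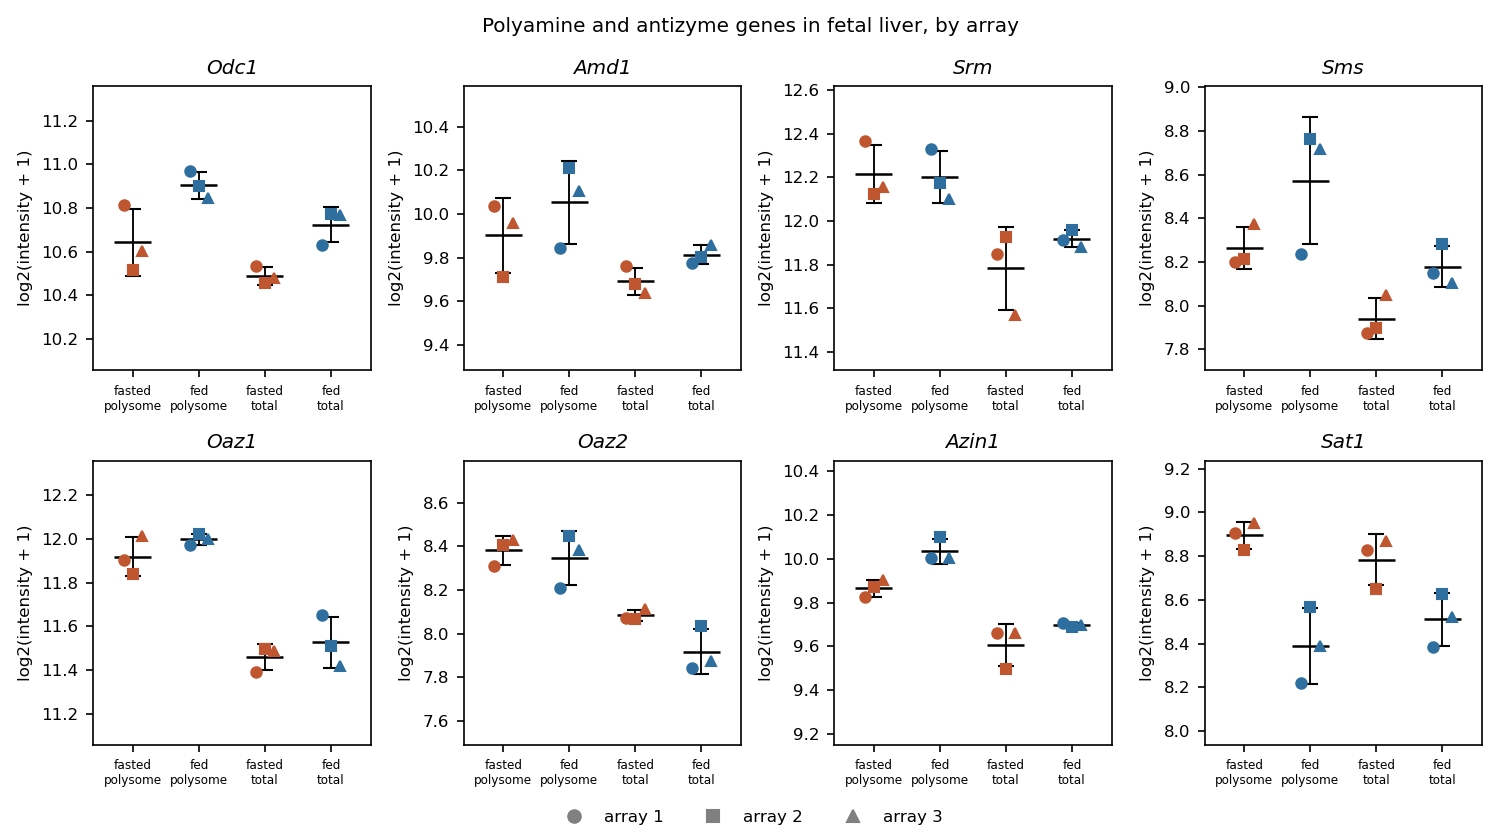
Level of each gene on every array as log2(intensity + 1), with 1 panel per gene. Points are arrays, long lines are group means and error bars are SD (n = 3), each panel spans the same height, and levels are not comparable between panels. The 3 fasted polysome arrays for Sat1 lie at 8.83 to 8.95, above the fed polysome arrays at 8.22 to 8.57.

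Sat1 measured 8.91, 8.83 and 8.95 log2 in the fasted polysome arrays, against 8.22, 8.57 and 8.39 in the fed polysome arrays. Every fasted array was above every fed array. The rise was 1.42-fold (0.51 ± 0.097 SE log2, 95% interval 0.30 to 0.72, limma adjusted p = 0.0212), and 98.3% of all tested genes had a lower change. In total RNA Sat1 measured 8.83, 8.65 and 8.87 log2 in fasted livers, against 8.38, 8.63 and 8.52 in fed livers. The groups again did not overlap, by a narrow margin between the second arrays, and the difference of 0.27 ± 0.097 SE log2 did not pass (95% interval 0.062 to 0.48, limma adjusted p = 0.169). The call on polysomes was lost without fasted polysome 1 (limma adjusted p = 0.0892), without fasted polysome 3 (0.103), without fed polysome 3 (0.066) and with only the 6 polysome arrays in the fit (0.0723), while the change itself stayed at 0.42 to 0.59 log2 in the fits that left out 1 array.

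Summed macrophage and endothelial markers also lay higher after fasting, without overlap in either fraction. Sums of intensities weigh the bright markers most. The median change of tested markers on polysomes was 0.24 log2 for macrophage, 0.064 for endothelial, -0.34 for megakaryocyte and -0.061 for neutrophil precursor lists. Over all tested genes it was 0.023 log2. In total RNA these 4 medians were 0.24, 0.18, 0.020 and -0.20 log2, beside 9.58e-04 over all genes. The summed intensity of 8 macrophage markers was 5130 to 5221 in fasted polysome arrays, against 4277 to 4598 in fed polysome arrays. In this fraction 2 of the 8 rose (2.65% of all tested genes did), Cd68, a lysosomal membrane protein (0.41 log2, limma adjusted p = 0.0213), and C1qb, a complement chain (0.51 log2, limma adjusted p = 0.0352). The summed intensity of 7 endothelial markers was 3918 to 4250 in fasted polysome arrays, against 3558 to 3730 in fed polysome arrays, and Fcgr2b, an Fc receptor of sinusoidal endothelium, was the 1 of 7 that rose (0.57 log2, limma adjusted p = 0.0349). Without fasted polysome 1, without fasted polysome 3, without fed polysome 2 or without fed polysome 3 these 3 calls were lost (limma adjusted p up to 0.132 for C1qb), as were those of Cd68 and C1qb with only the polysome arrays in the fit (0.0777 and 0.104). Without the filter C1qb and Fcgr2b also lost theirs (0.0592 and 0.0591). In total RNA the macrophage sum was 7023 to 7810 in fasted livers, against 6236 to 6528 in fed livers, with 0 of 8 called in the limma fit. The endothelial sum was 6898 to 7019 in fasted total arrays, against 5487 to 6159 in fed total arrays, and 3 of 7 rose, where 1.14% of all genes did (Pecam1, Esam and Fcgr2b, limma adjusted p = 0.0375, 0.0362 and 0.0383). These calls were lost in 9, 7 and 7 of the 12 fits without 1 array, and all 3 without the filter (limma adjusted p = 0.057, 0.057 and 0.0552). Summed megakaryocyte markers lay the other way on polysomes, at 2249 to 2786 in fasted polysome arrays, against 3119 to 3306 in fed polysome arrays, without overlap. In total RNA they were 2426 to 3190 in fasted livers, against 2420 to 3133 in fed livers. Neutrophil precursor markers overlapped in both fractions, at 9878 to 11608 in fasted polysome arrays, against 9715 to 11713 in fed polysome arrays, and 11106 to 12601 in fasted total arrays, against 11380 to 14862 in fed total arrays. Of the 3 tested megakaryocyte and 8 neutrophil precursor markers 0 were called in either fraction by limma, beside 1.63% of all genes in total RNA and 3.71% on polysomes. All 8 macrophage and all 7 endothelial markers with a probe lay above the filter. The part of these cell types in the level of Sat1 was not tested.

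Odc1, the committed step of synthesis, measured 10.81, 10.51 and 10.60 log2 in fasted polysome arrays, against 10.97, 10.90 and 10.84 in fed polysome arrays. In total RNA it measured 10.53, 10.46 and 10.48 log2 in fasted livers, against 10.63, 10.77 and 10.77 in fed livers. All fasted arrays lay below all fed arrays in both fractions. The changes, -0.26 ± 0.082 SE log2 on polysomes (limma adjusted p = 0.0871) and -0.23 ± 0.082 in total RNA (limma adjusted p = 0.163), did not pass. Their 95% intervals, -0.44 to -0.085 and -0.41 to -0.057, reach at most a 1.36-fold fall.

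Amd1, which makes the aminopropyl donor, measured 10.04, 9.71 and 9.96 log2 in fasted polysome arrays, against 9.84, 10.21 and 10.11 in fed polysome arrays, and the groups overlapped. In total RNA Amd1 measured 9.76, 9.68 and 9.64 log2 in fasted livers, against 9.78, 9.81 and 9.86 in fed livers, without overlap but with the nearest arrays almost level. Its changes were -0.15 ± 0.10 SE log2 on polysomes and -0.12 ± 0.10 in total RNA (limma adjusted p = 0.402 and 0.582).

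Srm, the spermidine synthase, measured 12.37, 12.12 and 12.15 log2 in fasted polysome arrays, against 12.33, 12.17 and 12.10 in fed polysome arrays, which is nearly the same range. Its total RNA levels were 11.85, 11.93 and 11.57 log2 in fasted livers, against 11.91, 11.96 and 11.88 in fed livers, with fasted total 3 the lowest array. The changes were 0.01 ± 0.10 SE log2 on polysomes and -0.14 ± 0.10 in total RNA (limma adjusted p = 0.95 and 0.53), and the sign on polysomes turned with quantile normalization.

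Sms, the spermine synthase, measured 8.20, 8.22 and 8.38 log2 in fasted polysome arrays, against 8.24, 8.76 and 8.72 in fed polysome arrays. Fed polysome 1 fell among the fasted arrays, whereas the other fed arrays were above all of them. In total RNA Sms measured 7.88, 7.90 and 8.05 log2 in fasted livers, against 8.15, 8.28 and 8.10 in fed livers, without overlap. The changes of -0.31 ± 0.12 SE log2 on polysomes and -0.24 ± 0.12 in total RNA did not pass (limma adjusted p = 0.149 and 0.33). Without fed polysome 1 the polysome change was -0.48 log2 and passed (limma adjusted p = 0.0176). In that fit 712 of all tested genes were called, against 321 in the main fit.

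Neither antizyme passed the test for fasting in either fraction. Oaz1 measured 11.90, 11.84 and 12.01 log2 in fasted polysome arrays, against 11.97, 12.02 and 12.0004 in fed polysome arrays, and 11.39, 11.50 and 11.49 in fasted total arrays, against 11.65, 11.51 and 11.42 in fed total arrays. Both pairs overlapped, with changes of -0.08 ± 0.076 SE log2 on polysomes and -0.07 ± 0.076 in total RNA (limma adjusted p = 0.563 and 0.705). For the Oaz1 probe used, the intervals reach at most 1.19-fold on polysomes and 1.17-fold in total RNA. A second Oaz1 probe, not tested, lay lower in fasted than in fed polysome arrays without overlap (given below).

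Oaz2 measured 8.31, 8.40 and 8.43 log2 in fasted polysome arrays, against 8.21, 8.45 and 8.38 in fed polysome arrays. In total RNA Oaz2 measured 8.07, 8.07 and 8.11 log2 in fasted livers, against 7.84, 8.03 and 7.87 in fed livers, where the fasted arrays were all above the fed ones. Its changes were 0.04 ± 0.079 SE log2 on polysomes and 0.17 ± 0.079 in total RNA (limma adjusted p = 0.821 and 0.298), and the polysome value turned sign without fed polysome 1.

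Azin1, the antizyme inhibitor, measured 9.82, 9.87 and 9.90 log2 in fasted polysome arrays, against 10.002, 10.10 and 10.003 in fed polysome arrays. In total RNA Azin1 measured 9.66, 9.50 and 9.66 log2 in fasted livers, against 9.71, 9.69 and 9.70 in fed livers. The fasted arrays were below the fed arrays in both fractions, as for Odc1, and the changes of -0.17 ± 0.067 SE log2 on polysomes and -0.09 ± 0.067 in total RNA did not pass (limma adjusted p = 0.154 and 0.525). Groups that did not overlap were found for Odc1, Azin1 (lower) and Sat1 (higher) on polysomes, which is 2 and 1 of 8 members, where 9.26% of all tested genes lay lower and 13.3% higher without overlap. In total RNA Odc1, Amd1, Sms and Azin1 lay lower and Oaz2 and Sat1 higher without overlap, 4 and 2 of 8, against 12.6% and 13.6% of all tested genes.

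**Figure D2:**
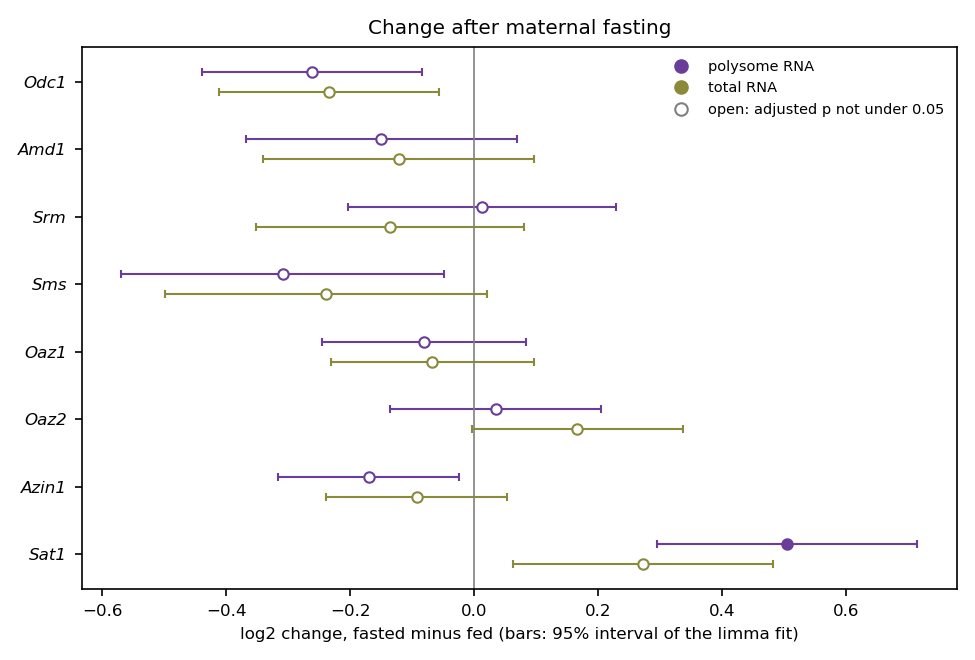
Fasted minus fed change in log2 for each gene, in polysome RNA (upper point of each pair) and total RNA (lower point), with bars for the 95% interval of the limma fit. Filled points passed the adjusted p threshold of 0.05: this is Sat1 on polysomes, at 0.51 log2.

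Whether fasting changed the polysome level of a member by more or less than its total level was tested as the difference between the effects. In the limma fit 0 of 8 members passed, 0 of 8 had an unadjusted p under 0.05, and 0% of all tested genes were called, with 500 genes at an unadjusted p under 0.05. The differences, polysome effect minus total effect, ran from -0.13 ± 0.11 SE log2 for Oaz2 to 0.23 ± 0.14 for Sat1 (limma adjusted p = 0.861 and 0.816). The 95% interval for Sat1, -0.064 to 0.53 log2, includes 0. Total and polysome arrays with the same number were taken to come from the same livers. Within such pairs, Sat1 on polysomes minus Sat1 in total RNA was 0.079, 0.18 and 0.080 log2 in fasted livers, against -0.17, -0.061 and -0.13 log2 in fed livers. The 3 fasted values lay above 0 and the 3 fed values below 0, and with each liver as a fixed factor the difference still did not pass (limma adjusted p = 0.513).

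**Figure D3:**
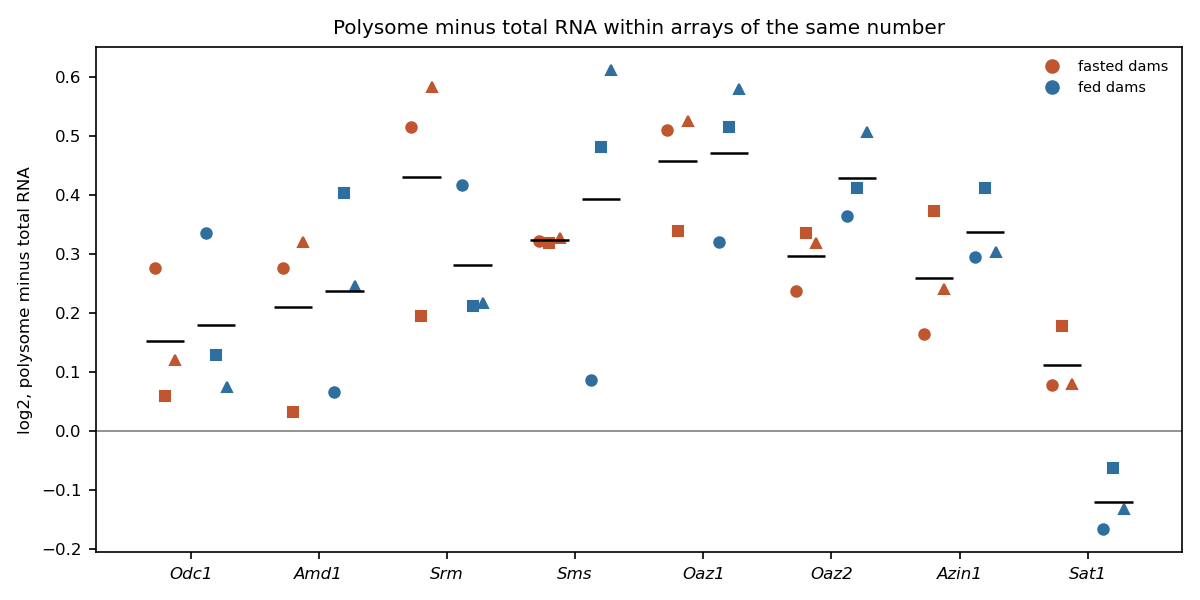
Polysome minus total RNA in log2 for each gene, with 1 point per pair of arrays with the same number (circle 1, square 2, triangle 3) and a line for the mean of 3 pairs, fasted dams on the left of each gene and fed dams on the right. All pairs lie above 0 except the 3 fed pairs of Sat1, at -0.17 to -0.061 log2.

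Compared with total RNA, polysome RNA held more of the antizyme, antizyme inhibitor and aminopropyl transferase messages in both diets. Odc1, Amd1 and Sat1 did not pass in the main fit, which does not pair arrays. With diet and number as a random block, Odc1 and Amd1 passed in fed livers (limma adjusted p = 0.0474 and 0.0329). A difference between these genes and the other members was not tested. In the main fit 5 of 8 members were called higher in fasted livers (Srm, Sms, Oaz1, Oaz2 and Azin1) and 0 lower, where 49.9% of all tested genes were called, 29.6% higher and 20.3% lower. The same 5 members were called in fed livers, where 50.1% of all genes were called, 28.2% higher and 21.9% lower. In fasted livers the same 5 lay higher without overlap (34.2% of all genes higher and 23.2% lower without overlap). In fed livers Odc1, Srm, Oaz1, Oaz2 and Azin1 did so, 5 of 8 (32.4% higher and 25.5% lower over all genes). The median polysome minus total difference of the members was 0.28 log2 in fasted and 0.31 in fed livers, beside 0.069 and 0.049 over all tested genes. Equal amounts of RNA were labelled and the values were scaled to each other, so these differences are relative to the other messages and give no share of a message on polysomes.

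**Figure D4:**
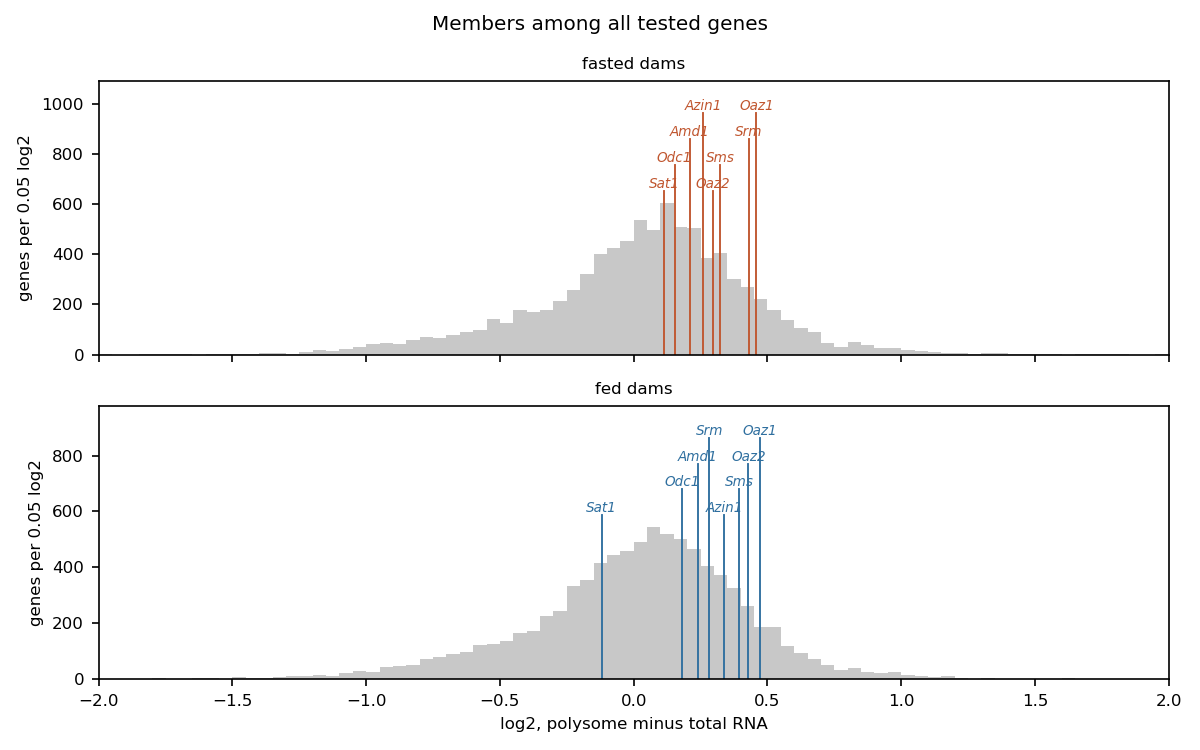
Distribution of the polysome minus total difference over all 8649 tested genes, in bins of 0.05 log2 between -2 and 2, for fasted dams (upper panel) and fed dams (lower panel), with the 8 members marked. Oaz1 lies farthest right among the members in both panels, at 0.46 and 0.47 log2, and Sat1 farthest left, at 0.11 and -0.12 log2.

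Oaz1 had the highest polysome minus total value of the 8 in both diets, although its lead over the next gene was not tested. It was 1.37-fold higher on polysomes in fasted livers (0.46 ± 0.076 SE log2, limma adjusted p = 2.83e-04) and 1.39-fold higher in fed livers (0.47 ± 0.076, limma adjusted p = 2.30e-04). Every polysome array was above every total array. Among all tested genes, 88.5% had a lower difference in fasted and 90.2% in fed livers, so Oaz1 lay in the upper part of the range and not at its end.

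Oaz2 was 1.23-fold higher on polysomes in fasted livers (0.30 ± 0.079 SE log2, limma adjusted p = 0.00701) and 1.35-fold higher in fed livers (0.43 ± 0.079, limma adjusted p = 6.29e-04). Azin1 was 1.197-fold higher in fasted livers (0.26 ± 0.067 SE log2, limma adjusted p = 0.00616) and 1.26-fold higher in fed livers (0.34 ± 0.067, limma adjusted p = 0.00113). For both genes all polysome arrays were above all total arrays of the same diet. Oaz1, Oaz2 and Azin1 passed in both diets under all 24 alternatives tried.

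Srm was 1.35-fold higher on polysomes in fasted livers (0.43 ± 0.10 SE log2, limma adjusted p = 0.00307) and 1.22-fold higher in fed livers (0.28 ± 0.10, limma adjusted p = 0.0319). Its call in fed livers was lost without any of fed total 1, 2 and 3, fed polysome 1 and fed polysome 2, which is 5 of the 12 fits that left out 1 array, with limma adjusted p up to 0.11 without fed polysome 1. It was also lost without the filter (0.0546) and with the mean of its probes (0.0666). Sms was 1.25-fold higher in fasted livers (0.32 ± 0.12 SE log2, limma adjusted p = 0.0391) and 1.31-fold higher in fed livers (0.39 ± 0.12, limma adjusted p = 0.0155). The fasted call of Sms was lost without fasted total 1 or 2 or any of the fasted polysome arrays, 5 of the 12 such fits (limma adjusted p up to 0.135), and without the filter (0.0623). The fed call was lost in 3, without fed total 3, fed polysome 2 or fed polysome 3 (limma adjusted p up to 0.0768).

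Odc1 and Amd1, the decarboxylases, measured smaller differences than the called members in both diets, and these gaps were not tested. Odc1 measured 0.15 ± 0.082 SE log2 higher on polysomes than in total RNA of fasted livers and 0.18 ± 0.082 of fed livers (limma adjusted p = 0.14 and 0.0841). Amd1 measured 0.21 ± 0.10 and 0.24 ± 0.10 log2 higher (limma adjusted p = 0.102 and 0.0658). With diet and number as a random block, the arrays of a liver being paired, both passed in fed livers (limma adjusted p = 0.0474 for Odc1 and 0.0329 for Amd1), and with each liver as a fixed factor Amd1 passed (0.0352). Without fasted polysome 2, the lowest Amd1 array of its group, Amd1 passed in fasted livers at 0.31 log2 (limma adjusted p = 0.0226) and in fed livers at 0.24 log2 (0.0398). Without fed polysome 1, the lowest fed polysome array for Amd1, it passed in fed livers at 0.34 log2 (limma adjusted p = 0.0102). Odc1 passed in fed livers without fasted polysome 1 (limma adjusted p = 0.0488), and in fasted livers, at 0.22 log2, without both fasted polysome 2 and fed polysome 1 (0.0433). Sat1 measured 0.11 ± 0.097 SE log2 in fasted and -0.12 ± 0.097 in fed livers (limma adjusted p = 0.353 and 0.324).

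Oaz1, Srm and Sms had further probes, whose values differed from the probe used in some comparisons. The second Oaz1 probe averaged -0.20 log2 for fasted minus fed polysome RNA and -0.0047 in total RNA. It measured 8.67, 8.64 and 8.72 log2 in fasted polysome arrays, against 8.83, 8.84 and 8.96 in fed polysome arrays, without overlap. The polysome arrays of the first Oaz1 probe overlapped, and the second probe was not tested. It was 0.51 log2 higher on polysomes than in total RNA in fasted and 0.71 in fed livers, in the same direction as the first. The second Srm probe gave 0.10 and 0.091 log2 for fasting on polysomes and in total RNA, and the total RNA value had the opposite sign to that of the first probe. It gave 0.19 and 0.17 log2 for polysome minus total RNA in fasted and fed livers. The other probes of Sms averaged 4.42 and 5.98 log2, under the filter level of 6.91. Their fasted minus fed values in total RNA were -1.70 and 0.44 log2. Their polysome minus total values were 0.98 and -0.52 log2 in fasted livers, and -0.52 and 0.55 log2 in fed livers. Each of these dim probes thus had the opposite sign to the brightest probe in fed or in fasted livers. The values of Sms rest on its brightest probe, since with the mean of its probes the gene fell under the filter.

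The wider pathway was followed through 37 further genes, of which 32 had a probe and 26 passed the filter. After fasting, 1 of 26 rose on polysomes and 2 of 26 rose in total RNA, and 0 fell in either, where 2.65% and 1.14% of all genes were called higher. The median change of the 26 was 0.098 log2 on polysomes and 0.060 in total RNA. Sat2, a relative of Sat1 that acetylates thialysine rather than polyamines, was the gene that rose in both fractions. Sat2 measured 8.38, 8.74 and 8.71 log2 in fasted polysome arrays, against 7.54, 7.88 and 8.25 in fed polysome arrays, and 8.18, 8.31 and 8.06 in fasted total arrays, against 7.24, 7.61 and 7.45 in fed total arrays. The fasted arrays were above the fed arrays in both fractions, a rise of 1.65-fold on polysomes (0.72 ± 0.16 SE log2, limma adjusted p = 0.0348) and 1.68-fold in total RNA (0.75 ± 0.16, limma adjusted p = 0.0383). The total RNA call of Sat2 was lost in 8 of the 12 fits without 1 array (any of the 6 total arrays, fasted polysome 3 or fed polysome 2), with limma adjusted p up to 0.142 without fed total 1. The polysome call was lost in 3 (fasted polysome 1, fasted polysome 3 or fed polysome 2), up to 0.117 without fasted polysome 3, and with only the polysome arrays in the fit (0.0997). Without the filter both were lost (limma adjusted p = 0.0552 in total RNA and 0.0574 on polysomes). Sat2 was also higher on polysomes than in total RNA, by 0.43 log2 in fasted and 0.46 in fed livers (limma adjusted p = 0.0362 and 0.0277), calls that were lost in 4 and 4 of the 12 fits without 1 array. Slc25a15, the mitochondrial ornithine carrier, rose 1.304-fold in total RNA (0.38 ± 0.087 SE log2, limma adjusted p = 0.0494). It measured 10.83, 10.91 and 10.67 log2 in fasted total arrays, against 10.50, 10.47 and 10.29 in fed total arrays, and lost its call in 8 of 12 such fits (without fasted total 1 or 2, any fed total array, fasted polysome 1 or 3, or fed polysome 2), with limma adjusted p up to 0.169 without fasted total 1, and without the filter (0.0815).

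**Figure D5:**
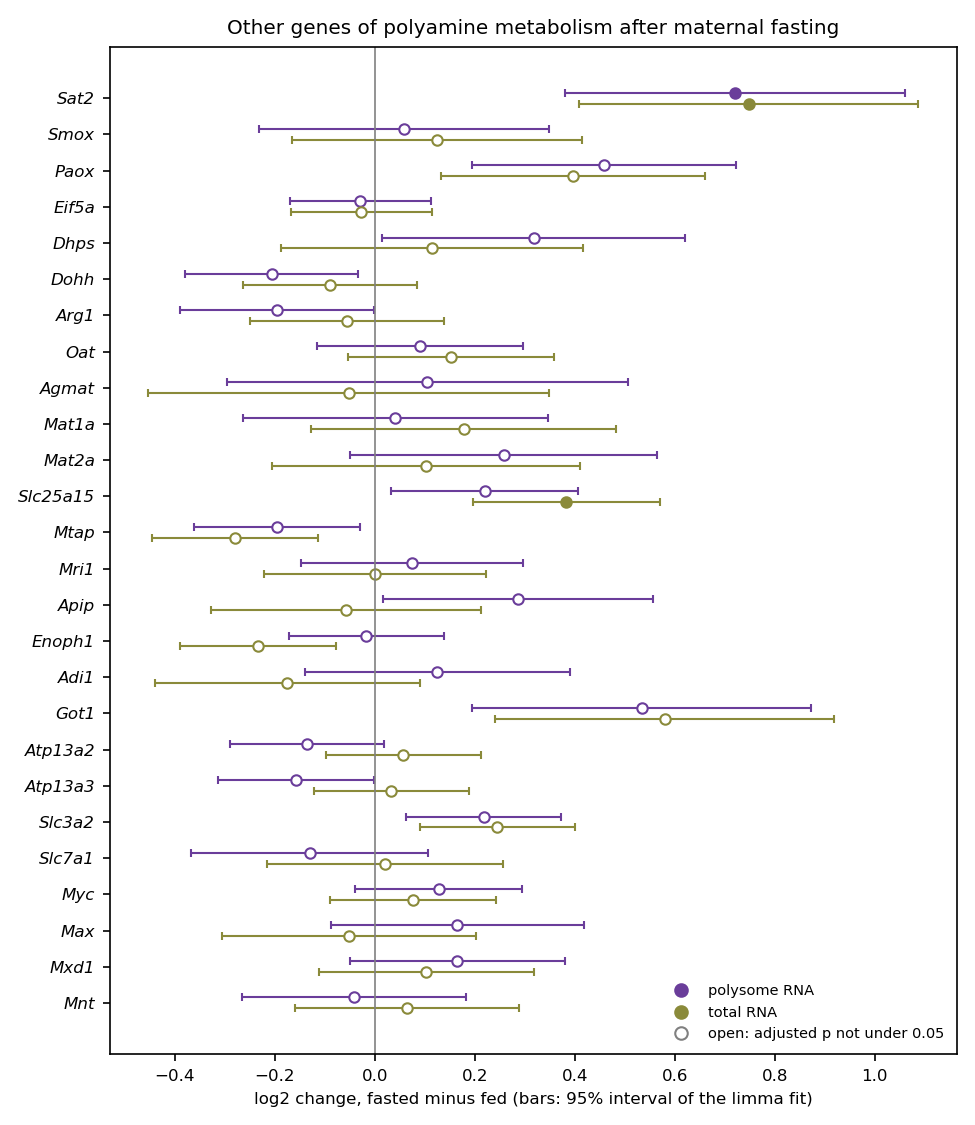
Fasted minus fed change in log2 for the 26 further pathway genes, in polysome RNA (upper point of each pair) and total RNA (lower point), with bars for the 95% interval of the limma fit. Filled points passed the threshold: Sat2 in both fractions, at 0.72 and 0.75 log2, and Slc25a15 in total RNA, at 0.38 log2.

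The 3 tested genes of hypusine formation, the modification of a lysine of Eif5a that consumes spermidine, were all higher on polysomes than in total RNA in both diets (29.6% of all genes were higher in fasted and 28.2% in fed livers). With fasting 0 of 3 changed in the limma fit of either fraction, beside 1.63% of all genes in total RNA and 3.71% on polysomes. Dohh, the hydroxylase of the last step, was 1.72-fold higher on polysomes in fasted livers (0.78 ± 0.080 SE log2, limma adjusted p = 7.37e-06) and 1.86-fold higher in fed livers (0.90 ± 0.080, limma adjusted p = 3.09e-06). Dhps, the synthase of the first step, was 1.79-fold higher in fasted (limma adjusted p = 2.99e-04) and 1.56-fold higher in fed livers (limma adjusted p = 0.00217). Eif5a, the translation factor itself, was 0.26 ± 0.065 SE log2 higher in both (limma adjusted p = 0.00494 and 0.00477).

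Among 4 tested transport genes, 4 were lower on polysomes in fasted and 2 in fed livers, where 20.3% and 21.9% of all genes were lower. Slc3a2, the heavy chain of amino acid exchangers, measured -0.55 ± 0.072 SE log2 in fasted and -0.52 ± 0.072 in fed livers (limma adjusted p = 4.60e-05 and 7.30e-05). Slc7a1, a carrier of arginine and ornithine, measured -0.57 ± 0.11 SE log2 in fasted and -0.42 ± 0.11 in fed livers (limma adjusted p = 7.77e-04 and 0.00607). In fasted livers Atp13a3, a polyamine transporter, measured -0.36 log2 and its relative Atp13a2 -0.18 log2 (limma adjusted p = 0.0012 and 0.0498), and the call of Atp13a2 was lost in 9 of the 12 fits without 1 array (limma adjusted p up to 0.18). In fed livers Atp13a3 measured -0.17 log2 and Atp13a2 0.011 log2, and neither passed (limma adjusted p = 0.073 and 0.912).

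Of 6 tested genes that supply ornithine or S-adenosylmethionine, Arg1, the arginase that makes ornithine, was 1.55-fold higher on polysomes in fasted livers (limma adjusted p = 8.58e-05) and 1.71-fold higher in fed livers (limma adjusted p = 1.98e-05). Agmat, named for agmatine hydrolysis, was 1.51-fold higher in fasted livers (limma adjusted p = 0.0176), a call lost without fasted total 2 or fasted polysome 1 (0.0565 and 0.0869). Mat2a, which makes S-adenosylmethionine outside the adult liver, measured -0.53 ± 0.14 SE log2 in fasted and -0.69 ± 0.14 in fed livers (limma adjusted p = 0.00721 and 0.00142). Of 6 tested genes that recycle methylthioadenosine, the by-product of both aminopropyl transferases, 3 were higher on polysomes in fasted livers (Mtap, Enoph1 and Adi1) and 1 in fed livers (Mtap), beside the shares of 29.6% and 28.2% over all genes. The calls of Enoph1 (0.22 log2, limma adjusted p = 0.0202) and Adi1 (0.43 log2, 0.011) were lost without fasted total 2 or fasted polysome 1, and that of Adi1 also without fasted polysome 3 (limma adjusted p up to 0.0903 and 0.0547). Mtap, the phosphorylase that starts the salvage, was 1.47-fold higher in fasted and 1.39-fold higher in fed livers (limma adjusted p = 6.82e-05 and 2.40e-04).

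Myc, a transcription factor known to drive Odc1, was 1.35-fold higher on polysomes in fasted livers and 1.31-fold higher in fed livers (limma adjusted p = 4.46e-04 and 0.00113), and Mnt, a repressor of the same network, was 1.32-fold and 1.42-fold higher (limma adjusted p = 0.00627 and 0.00139). Of 4 tested genes of this network, 0 changed with fasting in either fraction by limma, beside 1.63% of all genes in total RNA and 3.71% on polysomes. The fasting change of Myc measured 0.13 ± 0.077 SE log2 on polysomes and 0.08 ± 0.077 in total RNA (limma adjusted p = 0.345 and 0.672). The antizyme relatives Oaz3 and Azin2 both lay under the filter.

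The genes most like each member over the 12 arrays were found by Pearson's r, as a description only, since the 12 arrays share the split between fractions and were taken to be paired by liver. Oaz1 was most like Mrpl36, a mitochondrial ribosomal protein (r = 0.988), and Calm3, a calmodulin gene (r = 0.987). Azin1 was most like Rhoq and Psmd5 (0.975 and 0.974), Oaz2 most like Slu7 and Suclg1 (0.972 and 0.966), and Sms most like Parg and Acbd6 (0.968 and 0.967). Srm was most like Ssu72 and Trmt61a (0.961 and 0.957), Amd1 most like Pogk and Ccnc (0.951 and 0.935), and Odc1 most like Homer2 and Grwd1 (0.934 and 0.933). Sat1 had the lowest such values, with Trip10 and Aspa (0.904 and 0.902).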

How the data were processed

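RNA of fetal rat liver was measured on 12 arrays. The intensity values were deposited by the authors on a linear scale and RMA is the tool named in the submitters' processing notes, without a version. Of 28826 probes, 15209 carried exactly 1 gene symbol, and 15178 of these matched a current name by Entrez identifier. The brightest probe per gene was kept, and genes under the 40th percentile of mean log2(intensity + 1) over named probes (6.91) were dropped.

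The means of the 4 groups were estimated in 1 limma 3.58.1 model under R 4.3.3 (lmFit, eBayes, 8 residual and 5.16 prior degrees of freedom), with two-sided tests and Benjamini-Hochberg adjustment over 8649 genes. The number of arrays limits the precision. On simulated data for fasting in polysome RNA (8649 genes), the fit called 56% of genes changed 1.3-fold, 94% at 1.5-fold and 100% at 2-fold. The noise was drawn independently for each gene and array, without deviations shared within an array, so these shares need not hold for the real arrays. The members, lists and tests were chosen with earlier results of these data known. Named were all members, any gene of the wider lists that passed in any comparison (for a list with none, the lowest fasting p, which no list with a tested gene needed), and the 2 genes most like each member. Alternatives covered the filter, normalization, probes, pseudocount, priors, arrays in the fit, replicate blocks and each array left out. Of these, 3 were chosen after seeing the data, namely the filter level from all probes, each liver as a fixed factor, and dropping both fed polysome 1 and fasted polysome 2.

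Sample titles number arrays 1 to 3 per group without saying what a number marks. Deviations from group means correlated at 0.16 to 0.37 in all 6 pairs of total and polysome arrays of 1 diet with the same number, and at -0.15 to 0.36 in 6 pairs of fasted and fed arrays. Numbers were therefore taken to pair fractions of a diet, an inference from the data, and not diets. Plots used matplotlib 3.10.9 under Python 3.11.15.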

Additional observations from a re-analysis of the deposited data

How the results depend on the processing

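Each of the 5 comparisons was repeated under 23 or 24 alternatives. Fasting in total RNA and the difference between the effects gave 0 members in every one. Polysome against total RNA in fasted livers gave 4 to 5, except for 7 without both fed polysome 1 and fasted polysome 2, where Odc1 and Amd1 passed too (limma adjusted p = 0.0433 and 0.00409). Fasting in polysome RNA called 1 member, but 0 when the fit held the compared arrays alone and 2 (Sat1 and Sms) without fed polysome 1 and fasted polysome 2, and 0 to 2 in the fits without 1 array. Polysome against total RNA in fed livers called 5, but 4 with no filter, 3 with the mean of a gene's probes, and 3 to 6 in the fits without 1 array. With each liver as a fixed factor Amd1 passed in fed livers too (limma adjusted p = 0.0352). The fasting change of Srm on polysomes was -0.0073 log2 with quantile normalization and -0.062 to 0.078 without 1 array, and that of Oaz2 was -0.046 without both named arrays and -0.033 to 0.086 without 1 array. Without both arrays the difference between the effects was 0.068 for Odc1 and 0.014 for Oaz1. Without 1 array it ran from -0.11 to 0.036 for Odc1, -0.13 to 0.068 for Amd1, -0.24 to 0.025 for Sms and -0.076 to 0.040 for Oaz1. The causes of these shifts were not tested. With diet and number as a replicate block, pairing the fractions, the members called were 1, 0, 0, 5 and 7 (fasting in polysome RNA, in total RNA, the difference, polysome against total in fasted and in fed livers), and with number alone as the block 1, 0, 0, 5 and 5. Over all genes, fasting in polysome RNA called 321, against 93 with no filter, 205 with the filter level from all probes, 41 with only the arrays compared, 1350 without both arrays and 10 to 856 without 1 array. Fasting in total RNA called 141, against 57, 61 with only the arrays compared, 287 without both arrays and 18 to 206 without 1 array. The share of polysome calls that were higher was 71.3%, against 84.9% with median centring, 63.5% with quantile normalization, 83.9% with no filter, 57.2% without fed polysome 1 and 50% to 82.9% over the fits without 1 array. The self-test called 56% of genes changed 1.3-fold on polysomes, the smallest change simulated. Every member but Sat1 (1.42-fold) measured a smaller fasting change than that on polysomes. Changes of such sizes can be missed with 3 arrays a group, and the number of fetuses behind an array is not given.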
